A study of Arabidopsis thaliana with 2 samples.

Results

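The CBF factors and the cold-regulated COR genes of Arabidopsis thaliana were described in whole seedlings of 2 genotypes grown without cold. The genes were chosen by locus: CBF1 (AT4G25490), CBF2 (AT4G25470), CBF3 (AT4G25480, annotated as DREB1A), COR15A (AT2G42540), COR15B (AT2G42530), COR47 (AT1G20440), RD29A (AT5G52310, annotated as LTI78), KIN1 (AT5G15960), KIN2 (AT5G15970) and ERD10 (AT1G20450). These are 10 of the 23667 loci with reads in either library. There was 1 library labelled FMO5-OE T1, read as overexpression of FMO GS-OX5, and 1 library of Col-0, the wild type of the same accession. Both came from seedlings 12 days old, raised without treatment on 0.5X GM medium under long days, with light of 90 µmol m-2 s-1 and a temperature of 20 °C. The sources used here give neither the promoter of the transgene nor the number of lines or pooled seedlings, and they leave T1 unexplained.

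Cold acclimation in Arabidopsis runs largely through the CBF factors, AP2-domain activators that are transcribed within minutes of a drop in temperature and are nearly silent in the warm. They bind the CRT/DRE element, whose core is CCGAC, before the start of the COR genes. The COR genes encode hydrophilic proteins that protect membranes and enzymes when cells freeze or dry, and several of them also respond to abscisic acid (ABA) through the ABRE element with the core ACGTG.

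The FMO5-OE library held 12.21 M counted reads and the Col-0 library 11.56 M. FMO GS-OX5 (AT1G12140) had 1379 reads in FMO5-OE and 28 reads in Col-0, a 43.6-fold higher level in CPM. CPM are counts scaled to library size after TMM normalization, and a single read was worth 0.0792 CPM in FMO5-OE and 0.0894 CPM in Col-0. All 3 shoot and 5 root markers reached 5 CPM, from 5.47 CPM for LHCA1 to 19000 CPM for LHCB1.3 in FMO5-OE and from 7.15 CPM to 23600 CPM for the same genes in Col-0. Of the 3 seed storage genes, CRA1 and CRC had 0 reads in both. The other, OLEO1, had 13 reads in FMO5-OE and 5 reads in Col-0 (ratio 2.3, 0.771 to 8.25). Each genotype is a single library, so there is no replicate check and no p-value, and an effect of genotype cannot be told apart from anything else that set the 2 groups of seedlings apart. All intervals of levels, ratios and shares are exact 95% intervals and cover counting error only.

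The letters CCGAC occurred in the 500 bases before the start codon of all 7 COR genes and of none of the 3 CBF genes. Of 27443 protein-coding nuclear genes, 23.4% held CCGAC on either strand of this window and 4.49% held it more than once. The windows below are shown because they hold the letters of the element that CBF factors are known to bind. They are TAIR10.1 sequence from RefSeq, read 5′ to 3′ on the strand of the gene, with CCGAC in capitals.
COR15A (chr2:17712216-17712244, minus strand, 302 bases before the start codon): acaatttcatggCCGACctgctttttttt
COR15B (chr2:17710122-17710150, minus strand, 265 bases before the start codon): acaacttgatggCCGACctcttttttctt
KIN1 (chr5:5209802-5209830, plus strand, 178 bases before the start codon): gataaatagctaCCGACataaggcaaaac
KIN2 (chr5:5211769-5211797, plus strand, 185 bases before the start codon): aataaaaagctaCCGACataaggcaaaaa
RD29A (chr5:21240615-21240643, plus strand, 302 bases before the start codon): ataaatatcataCCGACatcagtttgaaa
RD29A (chr5:21240672-21240700, plus strand, 245 bases before the start codon): aaagatatactaCCGACatgagttccaaa
COR47 (chr1:7085916-7085944, minus strand, 268 bases before the start codon): gatattcatctaCCGACttcaagaaataa
ERD10 (chr1:7089365-7089393, minus strand, 278 bases before the start codon): ttcatccaCCGACCGACCGACgtaaaaga

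The sites lay between 178 and 479 bases before the start codon and all 13 copies were on the strand of the gene. Of the printed windows, only those of RD29A lie before the annotated RefSeq start, which is 212 bases before its start codon. The other printed windows lie after the annotated start, which is from 247 bases (KIN2) to 1209 bases (COR47) before the start codon. Among all genes, 13.5% held at least 1 copy on that strand. ERD10 had 3 copies in direct succession and RD29A had 4 spread copies, while COR15A had 2 and the other COR genes 1 each. The ABRE core ACGTG was searched on both strands too, so that a palindromic CACGTG counts on each strand. It was present in 34.6% of all genes and in 9 of the 10 genes here, with ERD10 as the exception. KIN2 held 7 matches, COR15A and KIN1 5 each, COR15B and CBF1 3 each, CBF2 2, and COR47, RD29A and CBF3 1 each. The E-box CANNTG, which reads alike on both strands, was in 77.3% of all genes and in 8 of the 10, COR47 and ERD10 being without. The CAMTA-bound letters CGCGTT were in 5.46% of all genes and once each in CBF2, COR47 and ERD10. A match in this window is a string of letters and not a measured binding site.

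**Figure D1:**
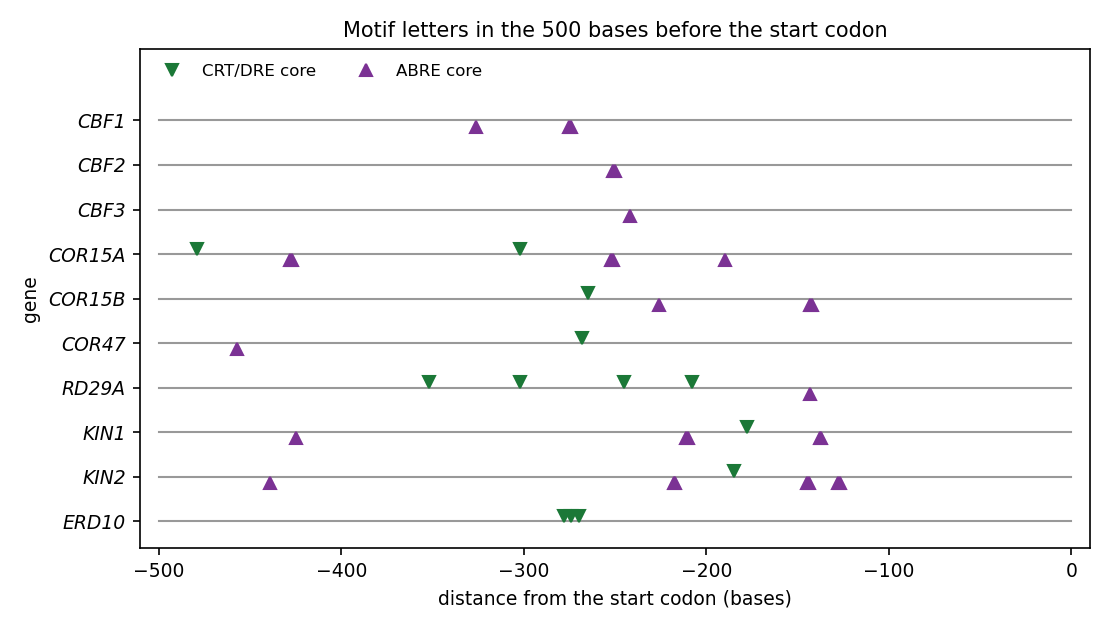
Positions of the CRT/DRE core (green) and the ABRE core (purple), on either strand, in the 500 bases before the start codon of each gene; the x axis is the distance from the start codon in bases. All 7 COR genes carry at least 1 CRT/DRE core, the 3 CBF genes carry none, and ERD10 alone lacks the ABRE core.

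The members sit in tandem groups. CBF2, CBF3 and CBF1 lie in this order on the minus strand of chromosome 4 (chr4:13015250-13016235, chr4:13018010-13019400 and chr4:13021780-13022996), each a single exon. COR15B and COR15A lie 7 bases apart on the minus strand of chromosome 2 (chr2:17708593-17710433 and chr2:17710441-17712330). COR47 and ERD10 lie 1029 bases apart on the minus strand of chromosome 1 (chr1:7084409-7086873 and chr1:7087903-7089606). KIN1 and KIN2 lie 892 bases apart on the plus strand of chromosome 5 (chr5:5209717-5210826 and chr5:5211719-5212743), and RD29A lies elsewhere on that strand (chr5:21240717-21243644). Coding sequences were 95% identical between KIN1 and KIN2, 87.3% to 87.5% among the CBF genes, 83.3% between COR15A and COR15B and 82.3% between COR47 and ERD10. The deposited counts are headed as unique reads, so a read found in 2 loci may be missing. Windows of 49 bases shared with another locus made up 4.26% of CBF2, 2.65% of CBF1, 0.67% of CBF3, 1.71% of KIN2, 1.54% of KIN1 and 0% of COR15A, COR47, RD29A and ERD10. COR15B shared 27.3% of its windows, all with AT2G42520. That gene overlaps 468 bases of the annotated end of COR15B on the other strand and had 512 reads in FMO5-OE and 433 reads in Col-0. These shares are of RefSeq models, which are mostly longer than the deposited ones. COR15B has 1584 bases in RefSeq and 653 in the deposited model. Whether the shared windows lie in the deposited model was not tested.

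The CBF factors were close to silent in both libraries and differed by less than counting error. CBF2 had 17 reads in FMO5-OE and 20 reads in Col-0, or 1.35 CPM (0.785 to 2.16) and 1.79 CPM (1.09 to 2.76). CBF3 had 4 reads in FMO5-OE and 5 reads in Col-0, or 0.317 and 0.447 CPM. CBF1 had 3 reads in FMO5-OE and 1 read in Col-0, or 0.238 and 0.0894 CPM. The ratios of FMO5-OE over Col-0 were 0.753 for CBF2 (0.371 to 1.51), 0.709 for CBF3 (0.141 to 3.29) and 2.66 for CBF1 (0.213 to 140), and every one of these intervals includes 1. CBF2 took 70.8% of the CBF reads in FMO5-OE (48.9% to 87.4%) and 76.9% in Col-0 (56.4% to 91.0%). A difference within these intervals was not detectable at this depth.

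COR15A and COR15B, whose products are chloroplast proteins that stabilise membranes during freezing, were both lower in FMO5-OE and by different amounts. COR15B had 18 reads in FMO5-OE and 105 reads in Col-0, or 1.43 CPM (0.845 to 2.25) and 9.39 CPM (7.68 to 11.4). Its level in FMO5-OE was 0.152 of that in Col-0 (0.0867 to 0.252), a log2 ratio of CPM + 1 of -2.10. Of the 13019 nuclear loci that reached 5 CPM in either library, 0 had a lower ratio. COR15B reached 5 CPM only in Col-0, and the covered part of its model of 653 bases was 67.38% in FMO5-OE and 86.98% in Col-0. COR15A had 65 reads in FMO5-OE and 124 reads in Col-0, or 5.15 CPM (3.98 to 6.57) and 11.1 CPM (9.22 to 13.2). Its ratio was 0.465 (0.339 to 0.632), an interval that lies apart from that of COR15B. The same contrast shows within each library, where no scaling enters: COR15B took 21.7% of the reads of the pair in FMO5-OE (13.4% to 32.1%) and 45.9% in Col-0 (39.3% to 52.5%). In bulk seedlings, fewer cells of a type and less RNA per cell cannot be told apart.

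The reads of COR15A rest on a part of the gene. RefSeq holds 4 models of COR15A, of which the deposited files list only model 2, with 755 bases. Its reads covered 132 bases in FMO5-OE and 179 bases in Col-0, or 17.48% and 23.71% of its length. In the longer RefSeq version of model 2, 52.1% of the windows of 49 bases also occur in another COR15A model. Whether the uncovered part of the deposited model is the shared one was not tested.

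RD29A and the KIN genes were lower by smaller amounts. RD29A, a hydrophilic protein whose promoter is a classic reporter of cold, drought and ABA, had 615 reads in FMO5-OE and 881 reads in Col-0, or 48.7 CPM (45.0 to 52.7) and 78.8 CPM (73.7 to 84.2). Its ratio was 0.619 (0.557 to 0.686), and the counting intervals of the 2 levels do not overlap. KIN1 and KIN2 encode near-identical small proteins that are induced by cold and ABA. KIN1 had 143 reads in FMO5-OE and 210 reads in Col-0, or 11.3 CPM (9.55 to 13.3) and 18.8 CPM (16.3 to 21.5), a ratio of 0.603 (0.484 to 0.750). KIN2 had 602 reads in FMO5-OE and 717 reads in Col-0, or 47.7 CPM (44.0 to 51.7) and 64.1 CPM (59.5 to 69.0), a ratio of 0.744 (0.667 to 0.830). The intervals of KIN1 and KIN2 overlap, and KIN1 took 19.2% of the reads of the pair in FMO5-OE (16.4% to 22.2%) and 22.7% in Col-0 (20.0% to 25.5%).

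COR47 and ERD10, acidic dehydrins that bind water and membranes, were at nearly the same level in both libraries. COR47 had 8060 reads in FMO5-OE and 7648 reads in Col-0, or 639 CPM (625 to 653) and 684 CPM (669 to 699). Its ratio of 0.934 (0.905 to 0.964) lies below 1 by little, and its log2 ratio was 0.00 with total count CPM. ERD10 had 171 reads in FMO5-OE and 158 reads in Col-0, or 13.6 CPM (11.6 to 15.7) and 14.1 CPM (12.0 to 16.5), with a ratio of 0.959 (0.768 to 1.20). Its log2 ratio of -0.06 turned to 0.03 with total count CPM.

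ERD10 has 2 models, which differ by the splice sites of 1 intron within the coding sequence. The joined exons of both models are shown because, at the deposited lengths, reads of 49 bases that belong to 1 model alone have to span them. They run 5′ to 3′ on the minus strand (chr1:7088651-7088801, TAIR10.1, intron left out), and capitals mark the bases that only that model holds.
ERD10 model 1: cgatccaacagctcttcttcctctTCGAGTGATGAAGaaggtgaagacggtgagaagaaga
ERD10 model 2: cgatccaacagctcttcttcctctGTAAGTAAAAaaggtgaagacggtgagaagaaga

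RefSeq model 1 was cut to its deposited length of 1514 bases by taking 100 bases from its 3′ end, which is an assumption. Then 61 start positions give a read of 49 bases that is absent from model 2, and these reads could cover 109 bases or 7.2% of model 1. At the uncut length of 1614 bases, 161 start positions do so. The deposited reads of model 1 covered 107 bases in FMO5-OE and 101 bases in Col-0. Model 2 had 0 reads in FMO5-OE and 1 read in Col-0. Per start position, ERD10 model 1 had 2.8 reads in FMO5-OE and 2.57 reads in Col-0, against 6.88 and 6.53 reads for COR47. ERD10 thus stood at 40.7% of COR47 in FMO5-OE and at 39.4% in Col-0 by this measure, while reads over the whole model length gave 1.71% and 1.65%. This count of start positions was chosen after the files had been seen. Of the 23667 loci, 3330 had more than 1 listed model. Whether low counts of ERD10 or of other genes named here, markers included, go with their models was not tested.

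Relative to model length and library total (RPKM, without TMM scaling), COR47 was the most abundant member, with 542 RPKM in FMO5-OE and 543 RPKM in Col-0. KIN2 followed with 103 RPKM in FMO5-OE and 129 RPKM in Col-0, then KIN1 with 21.3 and 33.1 RPKM and RD29A with 20.2 and 30.5 RPKM. COR15A had 7.05 RPKM in FMO5-OE and 14.2 RPKM in Col-0, and COR15B 2.26 and 13.9 RPKM. The CBF genes lay between 0.26 and 1.48 RPKM in FMO5-OE and between 0.0914 and 1.83 RPKM in Col-0. ERD10 model 1, over its full length, had 9.25 RPKM in FMO5-OE and 8.97 RPKM in Col-0. Within each library, KIN1 and RD29A were nearly level with each other. The values of ERD10 and COR15A divide reads on a small part of a model by its whole length, so their place in this order is not known. COR47 alone supplied 83.3% of the reads of the 7 COR genes in FMO5-OE (82.6% to 84.1%) and 77.7% in Col-0 (76.9% to 78.5%), so that a sum over the COR genes mostly tells of COR47. That sum was 767 CPM in FMO5-OE and 880 CPM in Col-0 (ratio 0.871), and without COR47 it was 128 CPM in FMO5-OE and 196 CPM in Col-0 (ratio 0.652).

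**Figure D2:**
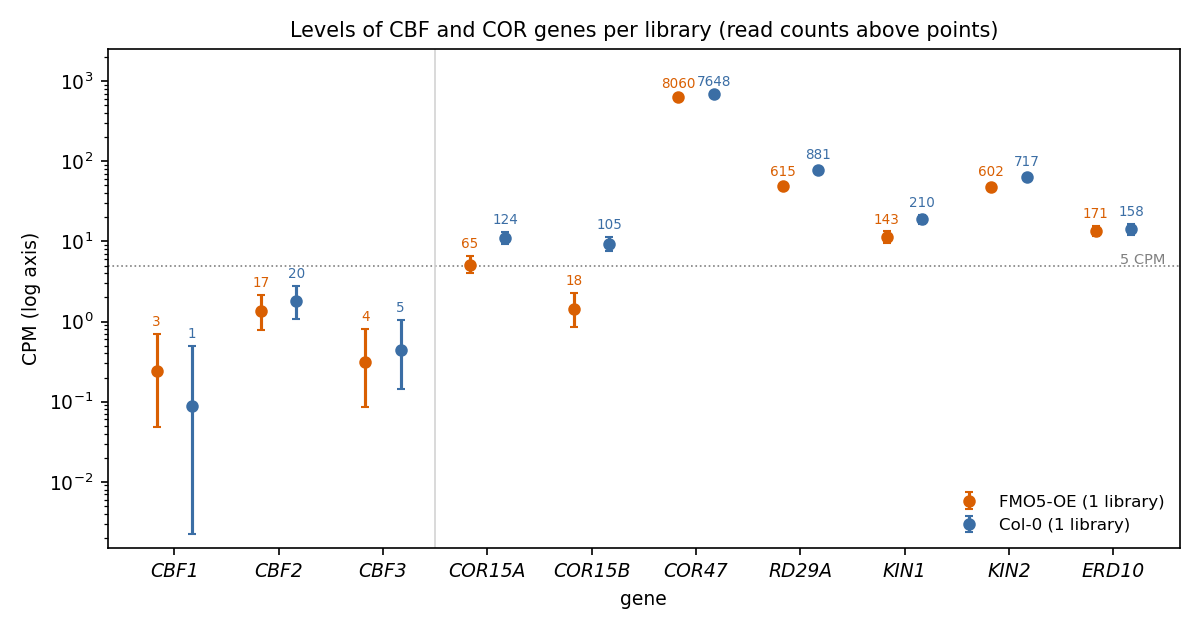
Level of each gene in CPM (log axis) in the FMO5-OE library (orange) and the Col-0 library (blue), 1 library each, with exact Poisson 95% intervals for counting error and the read count above each point; the dotted line marks 5 CPM. COR15B shows the widest gap, at 1.43 CPM in FMO5-OE and 9.39 CPM in Col-0, while the pairs of points of COR47 and ERD10 lie side by side.

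By size, 1 of the 10 genes, COR15B, was at least 2-fold lower in FMO5-OE, by a rule that asks for a log2 ratio of CPM + 1 of 1 or more in size and 5 CPM or more in the higher library. The same rule called 0.346% of the 13019 nuclear loci lower and 0.737% higher. At 1.5-fold, 4 of the 10 were lower (COR15B, COR15A, RD29A and KIN1) and 0 were higher, against 2.26% of loci lower and 3.38% higher. COR15A, with a log2 ratio of -0.97, was just outside the 2-fold rule, and KIN2, with -0.42, was outside the 1.5-fold rule. Without the added 1 CPM, the ratio of COR15A was 0.465. Among the 10 genes, 9 had a log2 ratio below 0, and 8 did with total count CPM. Of the 7 at 5 CPM or more, 7 lay below 0, against 52.2% of loci at that level. With total count CPM, 6 of these 7 did. The median log2 ratio was -0.33 over the 10 genes and -0.68 over the 7 COR genes, against -0.01 over all loci with an interquartile range from -0.17 to 0.16. The 7 COR genes all passed 5 CPM, 6 of them in both libraries, and the 3 CBF genes passed in neither. Among all loci, 0.376% had a lower ratio than COR15A, 1.24% than RD29A, 1.27% than KIN1, 5.94% than KIN2, 36.1% than COR47 and 42.8% than ERD10. Total count CPM moves log2 ratios up by about 0.1, and those of low genes by less. With it, the loci at least 2-fold lower and higher numbered 31 and 136, against 45 and 96.

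**Figure D3:**
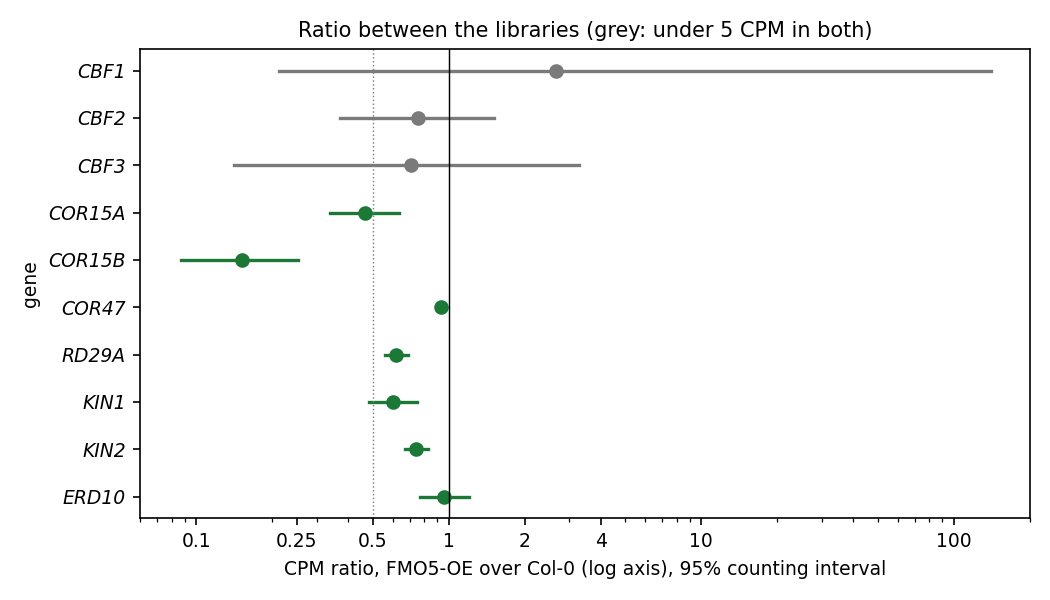
CPM ratio of FMO5-OE over Col-0 (log axis) for each gene, with the exact 95% counting interval as a line; grey genes stayed under 5 CPM in both libraries, and the dotted line marks a ratio of 0.5. The intervals of COR15A, COR15B, RD29A, KIN1 and KIN2 lie wholly below 1, that of COR47 ends at 0.964, and those of ERD10 and the CBF genes include 1.

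**Figure D4:**
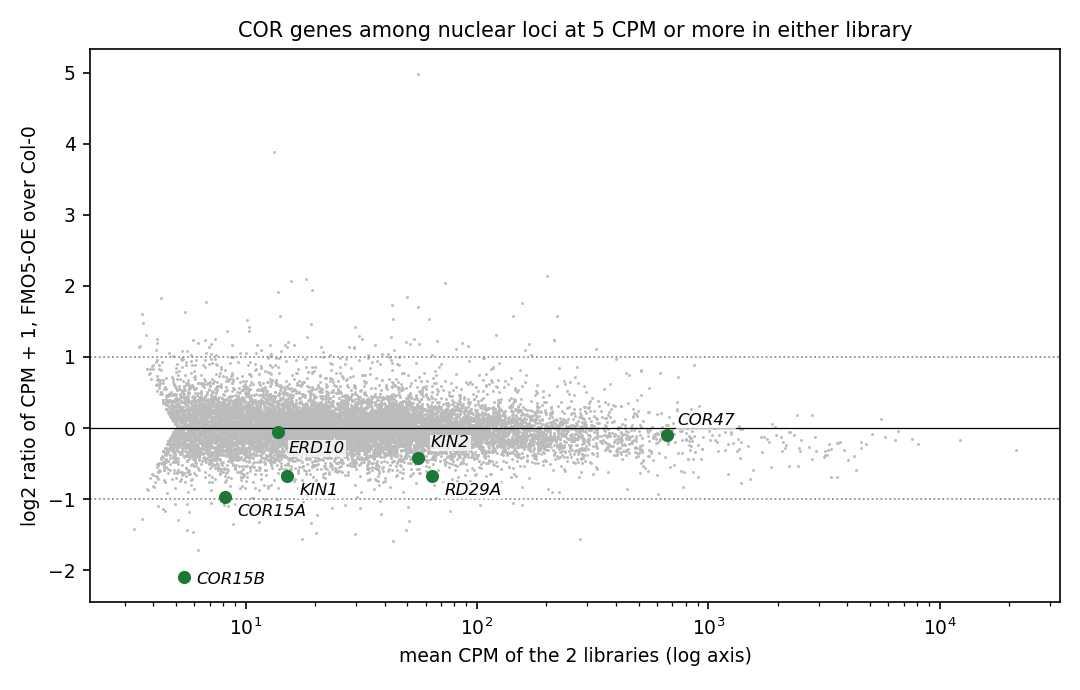
Log2 ratio of CPM + 1, FMO5-OE over Col-0, against mean CPM (log axis) for the 13019 nuclear loci at 5 CPM or more (grey) with the 7 COR genes in green; dotted lines mark 2-fold. COR15B is the lowest point of the plot at -2.10, and COR47 and ERD10 lie within the grey band.

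Other cold-regulated genes lay mostly within 1.5-fold of equal levels. Of 24 listed genes, 22 reached 1 CPM in either library, with 17 below 0 and 5 above and a median log2 ratio of -0.13, or -0.04 with total count CPM. Of the 20 that reached 5 CPM, 17 lay below 0 and 3 above, against 52.2% of all loci below 0, and with total count CPM it was 14 below and 6 above. By the rule on CPM + 1, 0 were 2-fold apart and 1 was 1.5-fold lower, EARLI1, a lipid transfer-like protein, with 770 reads in FMO5-OE and 1150 reads in Col-0 (ratio 0.593, 0.541 to 0.651). The RNA-binding protein GRP7 had 61 reads in FMO5-OE and 83 reads in Col-0 (ratio 0.651), GOLS3, a galactinol synthase that is a well-known CBF target, 53 and 72 reads (ratio 0.652), and the light-stress protein ELIP1 158 and 203 reads (ratio 0.690). GRP7 and GOLS3 reached 5 CPM only in Col-0. COR27 had 0 reads in both libraries, and COR28 had 0 reads in FMO5-OE and 1 read in Col-0.

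The other dehydrins did not share a direction. LTI30 had 951 reads in FMO5-OE and 872 reads in Col-0 (ratio 0.966), and HIRD11 had 12754 and 9070 reads (ratio 1.25). The median log2 ratio of the 8 of 10 dehydrins at 1 CPM or more was -0.05, with 5 below 0 and 3 above. Of these COR47, ERD10, LTI30 and HIRD11 reached 5 CPM, 3 with a log2 ratio below 0 and 1 above, against 52.2% of all loci below 0. This turned to 1 below and 3 above with total count CPM. Under 5 CPM, ERD14 had a ratio of 0.414 (0.203 to 0.804) and XERO1 of 0.19 (0.035 to 0.68). The rest of those between 1 and 5 CPM lay above 0, with intervals that include 1.

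Upstream of the CBF genes, factors known to act on their transcription or on the proteins that control it were spread on both sides of 0. Of 15 listed activators, 12 reached 1 CPM, 7 with a log2 ratio below 0 and 5 above, with a median of -0.05 that turned to 0.04 with total count CPM and to 0.06 over the 8 at 5 CPM or more. Of those 8, 4 lay below 0 and 4 above, against 52.2% of all loci below 0. With total count CPM it was 2 below and 6 above. By the rule of size, 0 of the 8 were 1.5-fold apart. Below 5 CPM, LHY had a log2 ratio of -0.79 with 15 reads in FMO5-OE and 31 reads in Col-0, and the calmodulin-binding activator CAMTA1 had 0.79 with 15 reads in FMO5-OE and 3 reads in Col-0 (ratio 4.43, 1.25 to 23.9). BZR1, a brassinosteroid response factor, had 43 reads in FMO5-OE and 61 reads in Col-0 (ratio 0.625, 0.413 to 0.938), and the co-factor BTF3L had 2979 and 3317 reads (ratio 0.796). BZR1 reached 5 CPM only in Col-0. ICE2, an inducer of CBF transcription, had 931 reads in FMO5-OE and 880 reads in Col-0 (ratio 0.938), while ICE1 had 12 and 16 reads, too few to compare. Of 18 listed repressors, 16 reached 1 CPM, 7 with a log2 ratio below 0 and 9 above, with a median of 0.03. Over the 13 at 5 CPM or more, 5 lay below 0 and 8 above. This turned to 2 below and 11 above with total count CPM. MPK3, a kinase that promotes the breakdown of ICE1, was the 1 member of this list at least 1.5-fold higher, against 3.38% of all loci. It had 3661 reads in FMO5-OE and 1801 reads in Col-0 (ratio 1.80, 1.70 to 1.91). SOC1, a flowering factor that represses CBF genes, had 649 reads in FMO5-OE and 417 reads in Col-0 (ratio 1.38, 1.22 to 1.56). The repressor MYB15 had 1 read in FMO5-OE and 0 reads in Col-0.

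Factors that cold induces in parallel with the CBF genes lay mostly on the other side. All 13 listed factors reached 1 CPM, 9 with a log2 ratio above 0 and 4 below, with a median of 0.54. Over the 12 that reached 5 CPM it was 9 and 3, with a median of 0.64, while 52.2% of all loci lay below 0. These counts of 9 and 3 were equal with DESeq2 size factors, total count CPM and the total of nuclear loci. By the rule on CPM + 1, ERF6, an ethylene response factor, was 2-fold higher, against 0.737% of all loci. It had 551 reads in FMO5-OE and 175 reads in Col-0 (ratio 2.79, 2.35 to 3.33). By the same rule 6 factors, ERF6 included, were at least 1.5-fold higher, against 3.38% of all loci. The zinc finger protein ZAT10 had 617 reads in FMO5-OE and 278 reads in Col-0 (ratio 1.97), the zinc finger protein CZF1 101 and 41 reads (ratio 2.18) and MYB73 1535 and 705 reads (ratio 1.93). CZF1, counted among the 6, reached 5 CPM only in FMO5-OE. ZAT12, a zinc finger protein that acts beside the CBF genes in cold, had 148 reads in FMO5-OE and 188 reads in Col-0 (ratio 0.698).

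The ABA and drought list was not lower as a group, and which of its genes hold ACGTG was not tested. Of 26 listed genes 20 reached 1 CPM, 17 with a log2 ratio above 0 and 3 below, with a median of 0.16. Of the 12 at 5 CPM or more, 9 lay above 0 and 3 below, against 52.2% of all loci below 0. With DESeq2 size factors it was 11 above and 1 below. NAC055 was at least 1.5-fold higher, against 3.38% of all loci, with 112 reads in FMO5-OE and 50 reads in Col-0 (ratio 1.99, 1.41 to 2.83). It reached 5 CPM only in FMO5-OE. The homeobox genes HB-7 and HB-12 had ratios of 1.42 and 1.31, and the ABA phosphatase PP2CA 1.27. RD29B, the neighbour of RD29A that depends on ABRE elements, had 4 reads in FMO5-OE and 1 read in Col-0, and RAB18 had 20 and 15 reads.

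**Figure D5:**
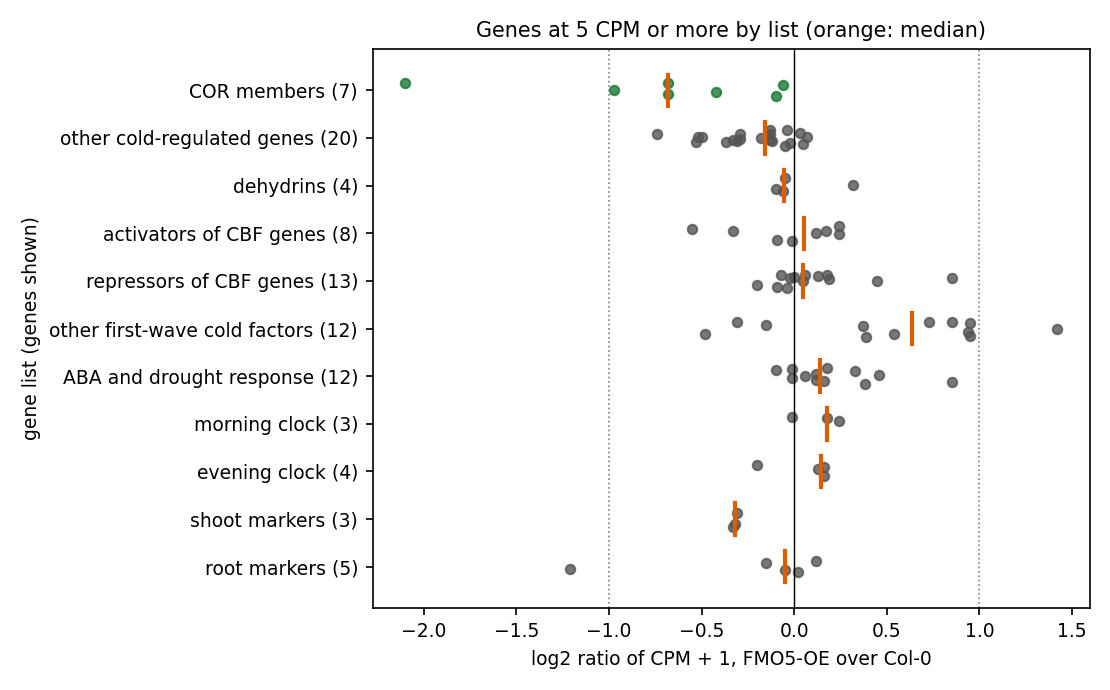
Log2 ratio of CPM + 1, FMO5-OE over Col-0, of each gene at 5 CPM or more (points) by gene list (rows, number of genes in brackets), with the median of each list in orange and dotted lines at 2-fold. Over these genes the median is -0.68 for the COR genes, -0.16 for the other cold-regulated genes (-0.06 with total count CPM) and 0.64 for the other first-wave cold factors.

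CBF and COR transcripts are known to follow the clock and to differ between organs, so the markers of both are given beside them. All 3 shoot markers had ratios below 1, with 0.800 for RBCS1A, 0.805 for LHCB1.3 and 0.764 for LHCA1, whose interval of 0.546 to 1.07 includes 1. Their summed level was 20200 CPM in FMO5-OE and 25100 CPM in Col-0. Of 5 root markers, 3 had a log2 ratio below 0 and 2 above (2 and 3 with total count CPM), and the aquaporin TIP2;3 was 2-fold lower, with 287 reads in FMO5-OE and 604 reads in Col-0. Of all loci, 52.2% lay below 0 and 0.346% were 2-fold lower. The root list summed to 5960 CPM in FMO5-OE and 5530 CPM in Col-0. Among 5 morning clock genes 3 reached 5 CPM: CCA1 had a ratio of 1.19, PRR7 of 1.13 and RVE8 of 0.994. LHY, the close relative of CCA1, stayed under 5 CPM with 15 reads in FMO5-OE and 31 reads in Col-0, a ratio of 0.429 (0.215 to 0.819). Among 7 evening clock genes 4 did, with ratios from 0.855 for PRR5 to 1.12 for GI and ELF3. The part of organ balance and of time of day in the ratios of the COR genes was not tested.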

How the data were processed

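RNA-seq of whole seedlings gave 1 library for each genotype. Per the file headers, each deposited file lists a transcript model with its count of unique reads, its length, the percent of it covered and its RPKM. RPKM recomputed from count, length and library total matched 100% of the deposited values within 0.1%, or within 1 RPKM where no decimals were written. The submitters' processing notes name TAIR10 as genome build. Which aligner and counter were used, and whether strand was, is not stated in the labels or headers. Unlisted models were taken as 0.

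Counts were summed over the models of a locus. The design named TMM over nuclear loci; all loci were used instead, and the planned form is given among the alternatives. TMM factors from edgeR 4.0.16 over all 23667 loci were 1.03 for FMO5-OE and 0.967 for Col-0, and 5 CPM stood for 63.1 reads in FMO5-OE and 55.9 reads in Col-0. The scaling and the rule of size were tested on simulated data. Intervals were Poisson for levels and Clopper-Pearson for ratios and shares. Software was matplotlib 3.10.9, scipy 1.17.1, pandas 2.3.3 and numpy 2.4.6 in Python 3.11.15, with DESeq2 1.42.0 in R 4.3.3 for size factors. Log2 ratios are of CPM + 1, which understates the difference of low genes, and ratios are of CPM.

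Annotation and sequence came from RefSeq for TAIR10.1. Of 27470 deposited models, 26776 were named there and 5570 had the same length, so that start sites and ends can differ from those the authors counted on, and motifs were therefore searched in the 500 bases before the start codon, a window chosen after the annotation had been seen in place of one before the start site. All 135 list loci were found in it. The genes named from the lists are those 2-fold apart and, among genes of 5 CPM or more, up to 4 whose log2 ratio was greatest in size, of which a selection is printed. ICE1, ICE2, LHY, CAMTA1, MYB15, COR27, COR28, ZAT12, RD29B and RAB18 were named beside the rule, after their values had been seen. The members and the lists were chosen with earlier results of these data known. Alternatives were other scalings, pseudocounts, minimum levels and fold limits, and the model with most reads.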

Additional observations from a re-analysis of the deposited data

How the results depend on the processing

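No paired analysis was possible because each genotype is a single library, which also means that none could be left out. TMM over nuclear loci, as the design worded it, was added after the files had been seen; it gave 45 loci at least 2-fold lower and 98 higher, and -0.98 for COR15A and -2.11 for COR15B. Over this and 6 other settings, 66 of 70 log2 ratios of the members stayed within their counting interval. The model with most reads could change ERD10 alone, since the other members have a single listed model. COR15B, the only member called at least 2-fold apart by the main rule on CPM + 1, kept its sign. ERD10 turned from -0.06 to 0.03 with total count CPM and with the total of nuclear loci. COR47 moved to 0.00 with total count CPM and to -0.01 with the total of nuclear loci. COR15A moved to -0.66 and COR15B to -1.16 with a pseudocount of 5 CPM. The number of members at least 2-fold lower was 2 with a pseudocount of 0.1 CPM, where COR15A joined COR15B, and 4 with a fold limit of 1.5. The loci at least 2-fold lower and higher numbered 17 and 42 with a pseudocount of 5 CPM and 21 and 56 at a minimum of 20 CPM, and 294 were lower at 1.5-fold. The median of the 7 COR genes ran from -0.69 to -0.54. For the gene lists, 84 of 94 alternative medians were within the interval of the list's median, and 10 were not. That interval is the spread over the genes of a list, and its whole range for lists of fewer than 6 genes. It does not measure counting error, and small shifts can stay within it by construction. Larger pseudocounts shrink the ratios of low genes by construction. Depth limits the CBF genes, whose 24 reads in FMO5-OE and 26 reads in Col-0 leave wide intervals.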

Other observations

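The ratios of loci outside the 10 genes were also set out by the number of CCGAC copies before the start codon. Among nuclear loci at 5 CPM or more, the median log2 ratio was -0.06 for the 119 with 3 or more copies, -0.03 for the 542 with 2 copies, -0.02 for the 2672 with 1 copy and -0.01 for the 9501 without it. The share at least 1.5-fold lower was 1.68%, 2.03%, 1.72% and 2.39% in this order. Loci with both CCGAC and ACGTG, 1348 in all, had a median of -0.01. This comparison was added after the values of the COR genes had been seen and is a description without a test.

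Some relatives stood at few reads. The dehydrin XERO1 had 3 reads in FMO5-OE and 14 reads in Col-0, and the dehydrin ERD14 had 14 and 30 reads. Among other DREB factors, CBF4 and DDF2 had 0 reads in both libraries, DDF1 had 2 reads in FMO5-OE and 0 reads in Col-0, and DREB2A had 11 and 12 reads. These genes were named after their values had been seen.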
